A study of Rattus norvegicus with 6 samples.

Results

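The let-7 family and its close relative miR-98 were examined in rat plasma. Its 9 members were taken from the arrays by name, a rule that uses no measured value although earlier results of these data were known, and they made up 1.19% of the rat microRNAs, 20 of the 1806 probes and 144 of the 12128 spots on each array. The question was whether arterial and venous plasma of the same animal carry the same levels of these microRNAs. Healthy male Sprague-Dawley rats aged 10 weeks, given no treatment, were bled from the abdominal aorta for arterial plasma and from the postcava for venous plasma. There were 3 rats, so that 3 arterial and 3 venous samples were compared on 6 single-colour (Cy3) Agilent arrays, and samples with the same number came from the same rat. The plasma had been spun and passed through a 0.22 µm filter before RNA extraction, and no genotype, transgene or pooling of animals was involved.

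let-7 was among the first microRNAs found, as a regulator of developmental timing in worms, and in mammals many near-identical copies are encoded at separate sites. A microRNA hairpin is cut into a 5p and a 3p arm, and the bases at the 5' end of the loaded arm, the seed, pair with target messages. The let-7 5p arms share 1 seed and are known to repress growth and stem cell genes such as those of the Ras, Hmga2 and Lin28 families, while Lin28 proteins block the maturation of let-7 precursors. In adults let-7 is abundant in differentiated tissues and blood cells. Circulating microRNAs are carried by vesicles, lipoproteins and protein complexes, and can also come from lysed blood cells.

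The mature sequences are shown because the members differ by so few bases. They are RefSeq entries on the GRCr8 assembly, matched by name for 9 of 9 members, and are written 5' to 3' with the seed (bases 2 to 8) in capitals.
rno-let-7a-5p: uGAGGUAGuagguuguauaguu
rno-let-7b-5p: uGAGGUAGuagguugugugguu
rno-let-7c-5p: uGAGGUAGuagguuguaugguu
rno-let-7d-5p: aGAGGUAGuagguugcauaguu
rno-let-7e-5p: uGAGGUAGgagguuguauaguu
rno-let-7f-5p: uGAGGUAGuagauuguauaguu
rno-let-7i-5p: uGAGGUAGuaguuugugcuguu
rno-miR-98-5p: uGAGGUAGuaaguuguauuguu
rno-let-7d-3p: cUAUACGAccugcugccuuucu
Also with the same seed, though not a member, is
rno-let-7g-5p: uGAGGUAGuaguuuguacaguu

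The seed GAGGUAG was held by 9 of the 685 array microRNAs with a RefSeq sequence (1.31%), namely the 8 member 5p arms and rno-let-7g-5p. The remaining member, rno-let-7d-3p, is the opposite arm of the let-7d hairpin and its seed UAUACGA was found in no other array microRNA. Counted from 1 at the 5' end and with rno-let-7a-5p as the reference, rno-let-7c-5p carries A19G, rno-let-7e-5p U9G and rno-let-7f-5p G12A. rno-let-7b-5p carries A17G and A19G, rno-let-7d-5p U1A and U16C, and rno-miR-98-5p G11A and A19U. rno-let-7i-5p is the most distant, with G12U, A17G, U18C and A19U, and rno-let-7g-5p carries G12U and U18C. Over the 28 pairs of member 5p arms, 1 to 6 bases differed, and 4 pairs differed at 1 base. How far a probe for a member also captures the other members was not tested, so counts of members are not counts of independent measurements.

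The hairpins lie at several sites of GRCr8, given with the gene whose span holds them. On the plus strand of chromosome 17, within a lncRNA (LOC120097935), rno-let-7a-5p lies at chr17:16320145-16320166, rno-let-7f-5p at chr17:16320508-16320529, rno-let-7d-5p at chr17:16322273-16322294 and rno-let-7d-3p at chr17:16322327-16322348. The second copy of rno-let-7f-5p, at chrX:24460052-24460073, and rno-miR-98-5p, at chrX:24460663-24460684, lie on the plus strand within Huwe1, a ubiquitin ligase gene. rno-let-7c-5p and rno-let-7b-5p lie on the plus strand at chr7:118683636-118683657 and chr7:118684044-118684065, within no other listed gene. The other copies carry further microRNAs within 10000 bases. The second rno-let-7a-5p copy, at chr8:50805219-50805240 on the plus strand within the lncRNA Lnc215, has Mir100 as a neighbour, and the second rno-let-7c-5p copy, at chr11:29688127-29688148 on the plus strand within a lncRNA (LOC103693508), has Mir99a. rno-let-7e-5p lies between Mir99b and Mir125a at chr1:67350243-67350264 on the plus strand within Spaca6. rno-let-7i-5p, at chr7:60527935-60527956 on the minus strand within LOC134479799, has no such neighbour.

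Intensities below are the background-subtracted brightness of the spots, averaged over the unflagged spots of a probe and then over the probes of a microRNA. For comparison between arrays they were quantile normalized, set to 1 where lower, and put on the log2 scale (normalized log2 intensity). Detected means that Feature Extraction, the scanner software, called the microRNA present. On an array 137 to 175 microRNAs were detected, 126 were detected on all 6 arrays, and their median intensity ranged from 17.2 (venous, rat 3) to 52.9 (venous, rat 2). Both arrays of rats 1 and 2 shared a slide and a scan, and both of rat 3 another, so that slide does not separate arterial from venous plasma but cannot be told apart from rat 3. Of the blood cell markers, 4 of 5 erythrocyte and 4 of 4 platelet and leukocyte microRNAs were detected on all arrays, and only rno-miR-144-5p on none. Their summed intensities were 2146 to 2477 in arterial and 765 to 3605 in venous plasma for the erythrocyte list, and 656.9 to 771 and 425 to 954 for the platelet and leukocyte list. With 6 arrays, precision is limited by their number. No spot of a member was saturated, and 9 to 19 of the 144 member spots were flagged on an array.

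Of the 9 members, 7 were detected on every array, 1 on a single array and 1 on none. Intensity before normalization is given first. rno-let-7a-5p, the reference form of the family, read 43.1 (rat 1), 124 (rat 2) and 81.2 (rat 3) in arterial plasma, and 27.8, 112 and 31.2 in venous plasma in the same order of rats. rno-let-7b-5p read 68.0, 138 and 81.5 in arterial and 43.1, 140.3 and 37.3 in venous plasma. rno-let-7c-5p read 75.1, 180.3 and 98.8 in arterial and 49.2, 169 and 41.7 in venous plasma. In all 3 the samples of rat 2 were the brightest and the venous samples of rats 1 and 3 the dimmest.

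In that order, rno-let-7d-5p read 15.3, 35.2 and 33.8 in arterial and 10.69, 43.6 and 14.5 in venous plasma. rno-let-7f-5p read 19.8, 64.8 and 48.1 in arterial and 12.7, 61.7 and 15.7 in venous plasma. rno-let-7i-5p read 32.5, 45.1 and 39.6 in arterial and 23.0, 56.9 and 14.4 in venous plasma. Arterial and venous values overlapped for these as well, since the venous sample of rat 2 lay among or above the arterial ones. rno-let-7d-3p read 39.9, 42.2 and 36.7 in arterial and 26.5, 47.9 and 20.4 in venous plasma, again with the venous sample of rat 2 highest and that of rat 3 lowest. Probes bind with unequal strength, so levels were not compared between microRNAs.

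The remaining members were at or near background. rno-let-7e-5p was detected in the arterial plasma of rat 2 alone, where it read 5.78, against 3.29 in the venous plasma of the same rat, and between -0.558 and 0.476 in the other samples. rno-miR-98-5p was detected on no array and read 2.37 and 2.19 in the arterial and venous plasma of rat 2, with 0.273 to 1.06 elsewhere. None of the spots of these members was well above background on any array, so no fold change is given for them. For both, the samples of rat 2 gave the highest readings.

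Each detected 5p member had a pair of probes with 8 spots each, and for the brighter probe of a detected member the median coefficient of variation among spots was 3.57 to 10.6%. rno-let-7d-3p had 4 probes with 4 spots each, of which 1 was dim, with no spot well above background on any array. In the arterial and venous plasma of rat 1, the dimmer probe of rno-let-7d-5p had 2 and 0 of 8 spots well above background. Its brighter probe had 8 and 6 there. The dimmer probe of rno-let-7f-5p had 1 and 0 of 8 spots well above background in the arterial and venous plasma of rat 1, and its unnormalized log2 difference there was 1.08 against 0.52 for the brighter probe. In rat 2 the same probes differed in sign, at -0.14 and 0.14. Relative to the median shift of the 126 detected microRNAs, 13 of the 16 probes of the 7 detected members were higher in the arterial plasma of rat 3, 14 in that of rat 2 and 5 in that of rat 1. Of the 273 probes of the 126 microRNAs the shares were 48.4, 51.3 and 49.8% in rats 3, 2 and 1. The probes of a microRNA read the same RNA and are not replicates.

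**Figure D1:**
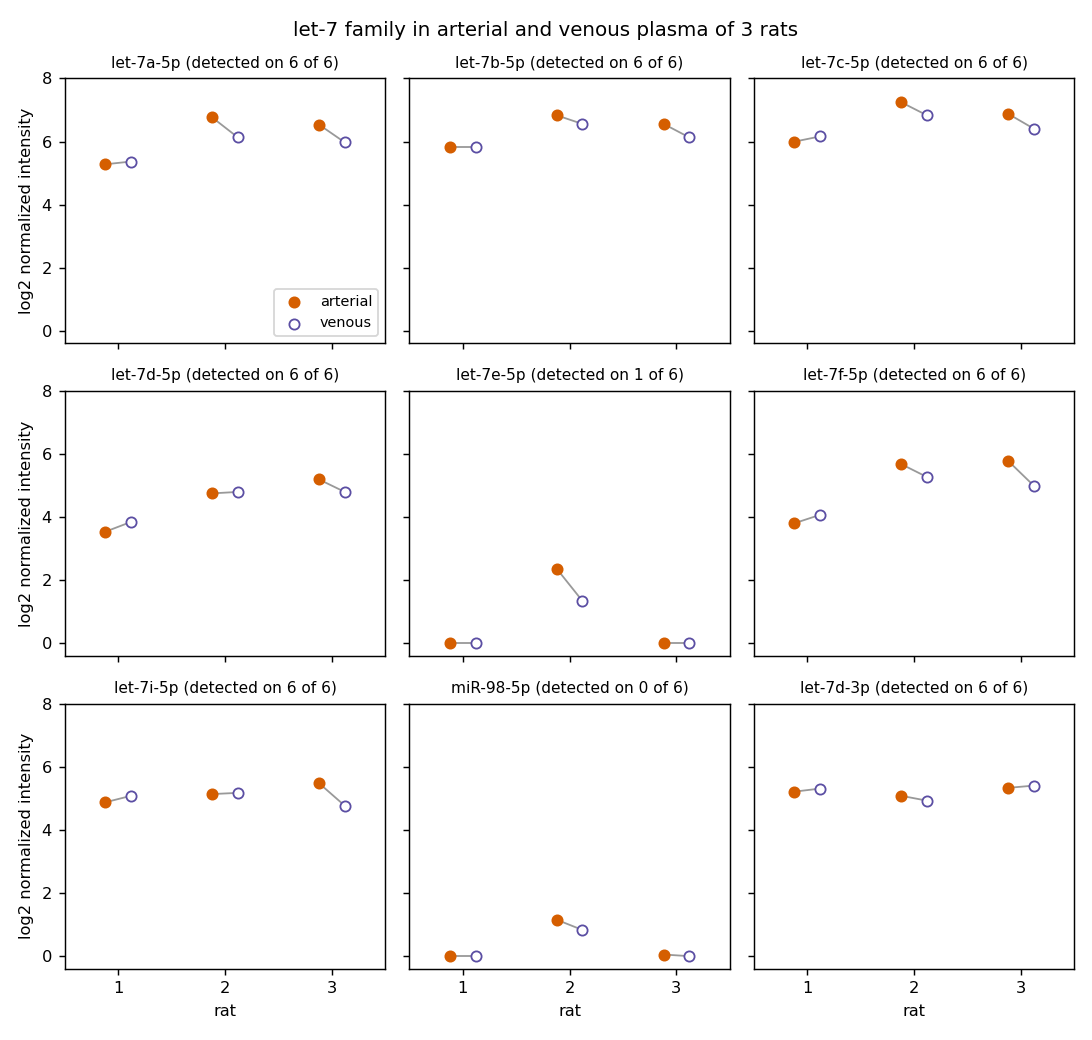
Normalized log2 intensity (vertical axis) of the 9 members by rat (horizontal axis), with filled points for arterial and open points for venous plasma and a line joining both samples of a rat. In the detected members arterial and venous points interleave, and rno-let-7a-5p, rno-let-7b-5p, rno-let-7c-5p, rno-let-7d-5p and rno-let-7f-5p lie lowest in rat 1, while rno-let-7e-5p and rno-miR-98-5p lie at 0 in rat 1 and at most at 0.05 in rat 3.

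None of the 9 members differed between arterial and venous plasma by the test. With limma and the rat as a block, 0 of 9 were past the unadjusted cutoff of 0.025 that the study's methods set. Of all microRNAs on the array 6 were (0.792%). At an unadjusted p under 0.05 there were 0 of 9, against 12 of all (1.58%). With shares this low, 0 of 9 does not set the members apart from the other microRNAs. In limma on the authors' normalized values rno-let-7a-5p and rno-let-7b-5p had an unadjusted p under 0.05, as both had without rat 1. The share of all microRNAs under 0.05 in those fits was not counted. After Benjamini-Hochberg adjustment over all microRNAs in limma 0 members passed 0.05, as did none of all microRNAs (0.0%). The methods' t-test, run on the same pairs and the intensities as normalized here, put 0 members past 0.025. It uses the same differences as limma and is nearly the same test, so it is no separate support. As normalized here, no detected member had all its arterial above all its venous samples, a pattern shown by 2.38% of the 126 detected microRNAs. With the same normalization none was higher in arterial than in venous plasma in each of the 3 rats, against 9.52% of the 126. The latter result depends on the scaling. In the authors' normalized values the members higher in arterial plasma were 3, 6 and 7 of 7 in rats 1, 2 and 3. Some were therefore higher in all 3 rats. Without normalization rno-let-7a-5p, rno-let-7c-5p and rno-let-7f-5p were higher in all 3, and the other detected members were not. The share of the 126 higher in all 3 rats was not counted for these scalings.

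rno-let-7a-5p stood at a normalized log2 intensity of 6.19 ± 0.80 for arterial and 5.82 ± 0.40 for venous plasma (SD, n = 3 each). Arterial minus venous, its differences were -0.09, 0.63 and 0.56 for rats 1, 2 and 3. Their mean was 0.37 on the log2 scale (standard error 0.219, 95% interval -0.50 to 1.23, adjusted p = 1 from limma), or 1.29-fold. It was the largest among the detected members here, while rno-let-7f-5p exceeded it without normalization (0.77 against 0.72), with either 75th percentile scaling, with the total gene signal and without rat 2. The arterial sample was the higher one in 2 of 3 rats.

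rno-let-7b-5p and rno-let-7c-5p, which differ at a single base, had mean differences close to each other. rno-let-7b-5p was 6.40 ± 0.53 in arterial and 6.17 ± 0.37 in venous plasma (SD, n = 3 each), with differences of 0.00, 0.27 and 0.43 in rats 1, 2 and 3. Its mean difference was 0.23 (standard error 0.119, 95% interval -0.24 to 0.70). rno-let-7c-5p was 6.71 ± 0.64 and 6.47 ± 0.34 (SD, n = 3 each), with differences of -0.17, 0.41 and 0.47 and a mean of 0.24 (standard error 0.194, 95% interval -0.53 to 1.01).

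Of the members detected on all arrays rno-let-7f-5p had the largest SDs, at 5.09 ± 1.11 in arterial and 4.79 ± 0.63 in venous plasma (SD, n = 3 each). It differed by -0.27, 0.41 and 0.79 in rats 1, 2 and 3, with a mean of 0.31 (standard error 0.294, 95% interval -0.85 to 1.47). rno-let-7i-5p was 5.17 ± 0.30 and 5.01 ± 0.21 (SD, n = 3 each), and its mean difference of 0.16 (standard error 0.269, 95% interval -0.91 to 1.22) came from rat 3, at 0.71, against -0.20 and -0.04 in rats 1 and 2. For every detected member the interval held 0.

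The arms of the let-7d hairpin had the smallest mean differences. rno-let-7d-5p was 4.50 ± 0.86 in arterial and 4.49 ± 0.55 in venous plasma (SD, n = 3 each), with differences of -0.31, -0.05 and 0.39 and a mean of 0.01 (standard error 0.196, 95% interval -0.76 to 0.79). rno-let-7d-3p was 5.21 ± 0.13 and 5.22 ± 0.25 (SD, n = 3 each), with differences of -0.10, 0.15 and -0.07 and a mean of -0.01 (standard error 0.0758, 95% interval -0.30 to 0.29). These intervals do not show that arterial and venous levels are alike, since for rno-let-7d-5p they reach 0.79 on the log2 scale.

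Across the 7 detected members the median difference, arterial minus venous, was 0.23 on the log2 scale, and 6 of 7 had a mean above 0. Over the 126 detected microRNAs the median was -0.00, with 59 above 0. Within rats the median of the members was -0.17, 0.27 and 0.47 in rats 1, 2 and 3, against -0.13, 0.00 and 0.02 for the 126. Higher in arterial plasma were 0, 5 and 6 of the 7 members in rats 1, 2 and 3, against 34.9, 46.0 and 50% of the detected microRNAs. A lower arterial value in rat 1 together with a higher one in rat 3 was seen in 5 of the 7, against 35.7% of the 126. Without rat 3, the only rat on its slide, the median of the members was 0.06, and in that rat alone it was 0.47. Before normalization the median of the 126 was itself 0.63 higher, 0.29 lower and 0.84 higher in the arterial plasma of rats 1, 2 and 3, so the sign in a single rat depends on the scaling. Unnormalized, all 7 detected members were higher in arterial plasma in rat 1, by a median of 0.61, and in rat 3, by a median of 1.25, and 3 of 7 in rat 2, against 100, 87.3 and 21.4% of the 126 in rats 1, 3 and 2.

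**Figure D2:**
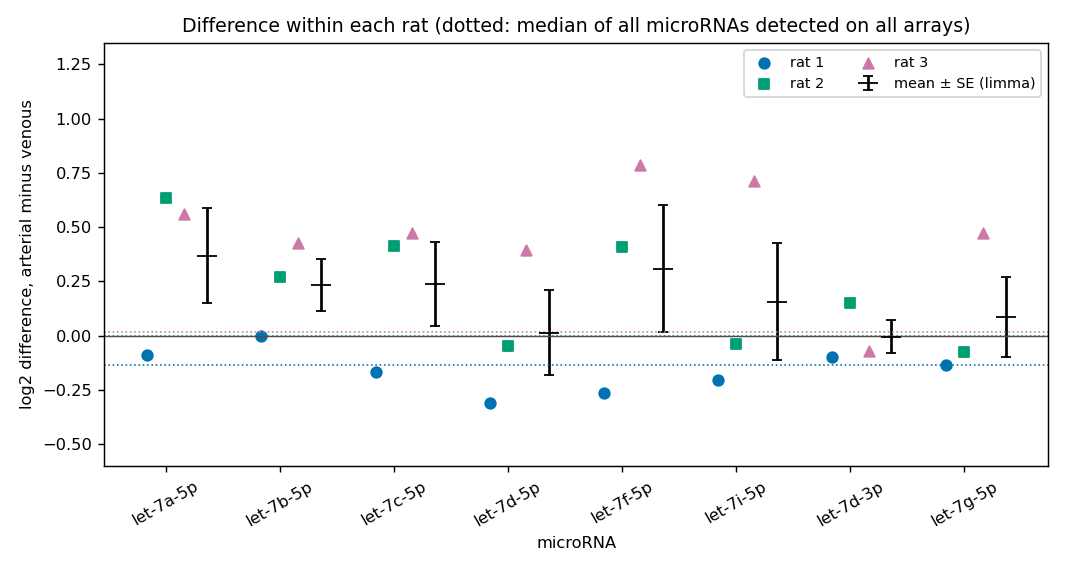
Difference in normalized log2 intensity, arterial minus venous, for the 7 detected members and rno-let-7g-5p, with a point for each rat and a black mark and bar for the mean and its standard error from limma. Dotted lines give the median of the 126 detected microRNAs in each rat (that of rat 2 lies on 0); the members scatter above and below 0, with rat 1 at or below 0 for each and rat 3 above 0 for each but rno-let-7d-3p.

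Of the detected members, 5 were lowest in both samples of the same animal. rno-let-7a-5p, rno-let-7b-5p, rno-let-7c-5p, rno-let-7d-5p and rno-let-7f-5p were each lower in both samples of rat 1 than in the 4 samples of the other rats, as were 22.2% of the 126 detected microRNAs. The steepest was rno-let-7f-5p, whose normalized log2 intensity was 3.81 (arterial) and 4.08 (venous) in rat 1, 5.68 and 5.28 in rat 2, and 5.79 and 5.00 in rat 3. Averaged over both samples it was 2.90-fold higher in rat 2 and 2.73-fold higher in rat 3 than in rat 1. rno-let-7a-5p was 5.28 and 5.37 in rat 1, 6.76 and 6.13 in rat 2, and 6.53 and 5.97 in rat 3, or 2.18-fold and 1.91-fold higher than in rat 1. rno-let-7d-5p was 3.54 and 3.85 in rat 1, 4.76 and 4.80 in rat 2, and 5.20 and 4.80 in rat 3. For rno-let-7b-5p and rno-let-7c-5p the rat 2 level was 1.84-fold and 1.94-fold that of rat 1, and the rat 3 level 1.44-fold and 1.48-fold. For rno-let-7d-5p and rno-let-7f-5p these sizes rest in part on rat 1 readings near background in the dimmer probe. The sizes also depend on the scaling, which moves the 126 as a whole. For rat 2 minus rat 1 the median log2 difference of the 5 was 1.08 here, 1.62 without normalization and 0.67 in the authors' table. Over the 126 it was 0.03, 0.50 and 0.03. For rat 3 minus rat 1 the median of the 5 was 0.93, 0.54 (lowest member 0.03) and 0.58. Over the 126 it was 0.10, -0.38 and 0.12.

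rno-let-7i-5p and rno-let-7d-3p did not share this order. rno-let-7i-5p was 4.88 and 5.08 in the arterial and venous plasma of rat 1, 5.14 and 5.18 in rat 2, and 5.48 and 4.77 in rat 3, so that the lowest and highest sample came from the same animal. rno-let-7d-3p was 5.22 and 5.31 in rat 1, 5.08 and 4.93 in rat 2, and 5.34 and 5.41 in rat 3, with both samples of rat 2 lowest and both of rat 3 highest. That order turned with the scaling: rat 2 minus rat 1 was -0.26 here, 0.47 without normalization and 0.13 at the 75th percentile of all microRNAs. Over the 126 the medians were 0.03, 0.50 and 0.17. Rat 3 minus rat 1 was 0.11 here and -0.25 without normalization, against 0.10 and -0.38 over the 126. The standard deviation of the 3 rat means had a median of 0.48 over the 7 detected members, against 0.37 over the 126. It was 0.09 for rno-let-7i-5p, 0.19 for rno-let-7d-3p and 0.44 to 0.86 for the 5 members low in rat 1. Those 5 were picked for their low rat 1 samples, so their wider spread follows in part from the pick. The 2 arms of the let-7d hairpin differed by 1.30 (5p) and 0.11 (3p) between rats 3 and 1 on the log2 scale. This difference between arms was not tested.

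In the limma F test of the rat terms, 0 members passed an adjusted p of 0.05 over all microRNAs, nor did any other microRNA (0.0%). At an unadjusted p under 0.05 there were 3 of 9, against 7.65% of all. These were rno-let-7b-5p (adjusted p = 0.626 from limma), rno-let-7d-5p (adjusted p = 0.626 from limma) and rno-miR-98-5p, which was never detected. The 7.65% is taken over many microRNAs that sat at the floor on every array and cannot be called. Most members were detected on every array, so these shares are not like for like. When only the 126 detected microRNAs entered limma, the unadjusted p was under 0.05 for 5 of the 7 detected members, against 36.5% of the 126. These were the 5 picked above as low in rat 1, a pattern that itself lowers this p. None of them passed an adjusted p of 0.05 in that fit either, where the lowest among members was 0.0538 for rno-let-7f-5p and 2.38% of the 126 passed.
The low readings in rat 1 were seen in 6 members in the authors' normalized table (27.8% of the 126) and in 5 with arrays scaled to the 75th percentile of the detected microRNAs (14.3%). Scaled to that of all microRNAs they were seen in 3 (8.73%), and without normalization, where the venous sample of rat 3 was also dim, in none (2.38%).

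The liver microRNA rno-miR-122-5p was 5.79 and 5.996 in the arterial and venous plasma of rat 1, 9.05 and 7.82 in rat 2, and 7.18 and 6.88 in rat 3 (normalized log2 intensity). rno-miR-192-5p, likewise of the liver list, was 4.17 and 4.88, 5.72 and 5.31, and 5.66 and 5.44, while rno-miR-194-5p, the last of the list, was detected on no array. The summed liver list read 90.7 to 703 in arterial and 65.1 to 372 in venous plasma. In the erythrocyte list rno-miR-451-5p had the same normalized value of 10.49, which quantile normalization gives to equal ranks, in both samples of rats 1 and 2 and in the arterial sample of rat 3, and 9.71 in the venous sample of rat 3. Both samples of rat 1 were lowest for rno-miR-16-5p and rno-miR-144-3p of the erythrocyte list and for rno-miR-142-5p of the platelet and leukocyte list. They were not for rno-miR-451-5p, rno-miR-486, rno-miR-223-3p, rno-miR-142-3p and rno-miR-150-5p. The part of these cells and tissues in the let-7 readings was not tested.

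**Figure D3:**
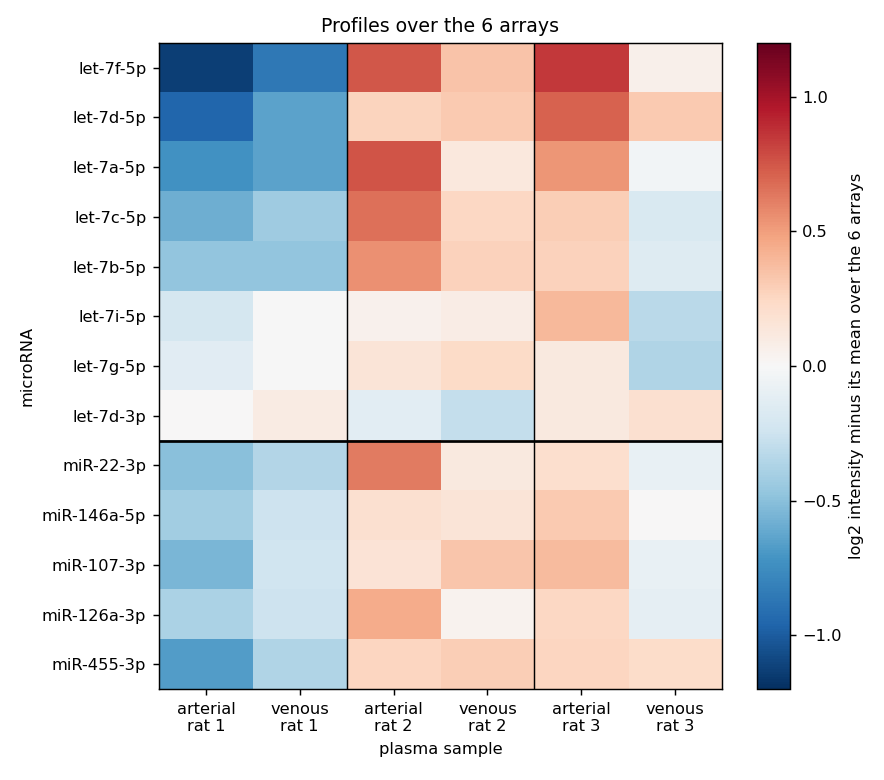
Normalized log2 intensity of each microRNA minus its mean over the 6 arrays (colour), with samples in columns ordered by rat. The upper rows are 7 members and rno-let-7g-5p, and the lower rows the 5 other microRNAs whose profile lay closest to the mean of the members; rno-let-7f-5p to rno-let-7b-5p are blue in both samples of rat 1, unlike rno-let-7i-5p, rno-let-7g-5p and rno-let-7d-3p.

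Likeness of profiles was measured as the root mean square (RMS) difference between the normalized log2 intensities of 2 microRNAs over the 6 arrays, after taking each microRNA's mean away. These are descriptions, since all microRNAs share the same arrays and normalization. The closest pair was rno-let-7b-5p with rno-let-7c-5p, at 0.0717. rno-let-7a-5p lay 0.167 from rno-let-7c-5p, 0.201 from rno-let-7b-5p and 0.247 from rno-let-7f-5p, its neighbour on chromosome 17. rno-let-7i-5p was 0.138 from rno-let-7g-5p, with which it shares G12U and U18C, and 0.318 to 0.642 from the other detected member 5p arms. The 2 arms of the let-7d hairpin lay 0.621 apart. Over 21 pairs of detected 5p arms, rno-let-7g-5p included, the median distance was 0.167 for the 3 pairs with 1 substitution, 0.330 for the 6 with 2, 0.340 for the 5 with 3 and 0.406 for the 6 with 4, and the single pair with 6 lay at 0.507. The ranges overlapped, since pairs with 2 substitutions ran from 0.138 to 0.681.

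**Figure D4:**
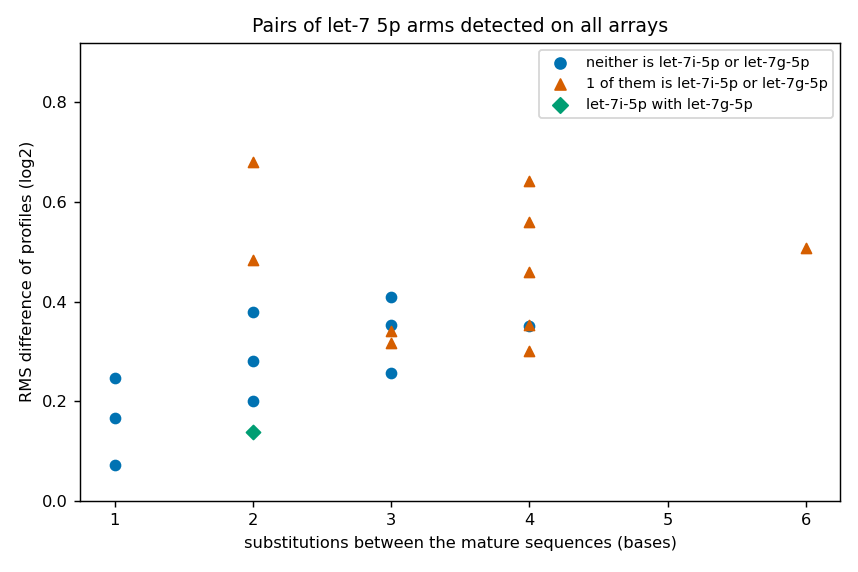
RMS difference between the profiles of 2 let-7 5p arms over 6 arrays (vertical axis, log2) against the number of substitutions between their mature sequences (horizontal axis), for 21 pairs. Pairs joining rno-let-7i-5p or rno-let-7g-5p with another arm (triangles) run from 0.302 to 0.681, and the pair of these 2 (diamond) lies at 0.138.

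The 5 microRNAs outside the family closest to the mean profile of the 7 detected members were rno-miR-22-3p (RMS difference 0.144), rno-miR-146a-5p (0.145), rno-miR-107-3p (0.150), rno-miR-126a-3p (0.151) and rno-miR-455-3p (0.158). For scale, rno-let-7b-5p lay 0.127 and rno-let-7a-5p 0.180 from that mean, to which the members themselves contribute. rno-miR-22-3p was 6.88 and 7.03 in the arterial and venous plasma of rat 1, 8.01 and 7.50 in rat 2, and 7.59 and 7.29 in rat 3, again lowest in rat 1.

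rno-let-7g-5p, the seed relative outside the list, was detected on all arrays and read 36.5, 54.7 and 37.0 in the arterial and 25.3, 67.5 and 14.9 in the venous plasma of rats 1, 2 and 3. Its log2 difference was 0.09 (standard error 0.184, adjusted p = 1 from limma). Of the 3p arms of the member hairpins and of let-7g other than rno-let-7d-3p, 9 were on the array. Only rno-let-7b-3p was detected, in the venous plasma of rat 3, where it read 5.11 against 3.18 to 4.44 in the other samples. In most let-7 hairpins the 3p arm is the one usually degraded after processing, though rno-let-7d-3p was detected on every array.

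The arrays also carry rno-miR-3596a, whose sequence aacuauacaaccuacuaccuca is the exact reverse complement of rno-let-7a-5p, and rno-miR-3596b, rno-miR-3596c and rno-miR-3596d, shorter and each the reverse complement of a stretch of rno-let-7d-5p, rno-let-7e-5p and rno-let-7f-5p. None of the 4 was detected on any array. rno-miR-3596a read 0.805 to 1.60.

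Of 5 microRNAs known from clusters with let-7, rno-miR-99a-5p and rno-miR-125b-5p were detected on all arrays, rno-miR-125a-5p on 4, rno-miR-100-5p on 2 and rno-miR-99b-5p on none. No hairpin of rno-miR-125b-5p lay within 10000 bases of a let-7 copy. The adjusted p from limma was 1 for each of the 5. rno-miR-99a-5p, a relative of miR-100, differed by 0.28, 0.31 and 0.69 in rats 1, 2 and 3, arterial minus venous (mean 0.43, standard error 0.128, adjusted p = 1 from limma). rno-miR-125b-5p, a microRNA of blood stem cells, differed by 0.31, 0.06 and 0.26 (mean 0.21, standard error 0.0735). Both were higher in arterial plasma in 3 of 3 rats, and both were lowest in rat 3 on average rather than in rat 1. In the cluster on chromosome 1, rno-let-7e-5p and rno-miR-99b-5p were at background, while rno-miR-125a-5p, detected on 3 arterial arrays and 1 venous array, read 7.34, 16.8 and 8.09 in arterial and 3.14, 13.9 and 3.84 in venous plasma. Its normalized log2 difference was 0.55 (standard error 0.0965, adjusted p = 1 from limma), which put it past the unadjusted cutoff of 0.025, though 2 of its venous arrays did not detect it. On the X chromosome rno-miR-98-5p was not detected, whereas rno-let-7f-5p, which has a further copy on chromosome 17, was detected on every array.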

How the data were processed

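Plasma RNA of 3 rats was hybridized to Agilent rat miRNA arrays. The authors deposited Feature Extraction intensities of each spot (version 10.7.3.1 in the file headers, 11.0.1.1 in the labels), background-subtracted but on each array's own scale, and intensities that they quantile normalized with GeneSpring. Here, control and outlier-flagged spots were dropped, spots were averaged per probe and probes per microRNA, and the 758 microRNAs were quantile normalized, floored at 1 and put on the log2 scale. limma 3.58.1 (R 4.3.3) was fitted to all microRNAs with plasma type and rat as terms, two-sided. Standard errors rest on few degrees of freedom, since limma's prior carried 0.198 of them over all microRNAs and 3.22 over the 126 detected on every array. Exact permutation over 3 pairs cannot give a two-sided p below 0.25 and was not used. The study matched samples by rat, and samples with the same replicate number in their titles were paired. Deviations from the group means correlated at 0.799, 0.686 and 0.635 within rats 1, 2 and 3. Between rats they correlated below 0, which is partly built in, since the deviations within a group sum to 0. Only the limma fit, not the steps before it, was tried on simulated data. The planted differences there were larger than the mean differences of the detected members. The members, gene lists and tests were chosen with earlier results of these data known. The named microRNAs are the members, the other arms of their hairpins, cluster partners, 3 marker lists and the 5 closest profiles; rno-miR-3596a to d were added for their sequences. Figures were drawn with matplotlib 3.10.9. Quantitative PCR was not analysed here.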

Additional observations from a re-analysis of the deposited data

How the results depend on the processing

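Of 19 alternatives, 16 left the number of members past the unadjusted cutoff of 0.025 at 0. It was 1 with flagged spots kept (rno-let-7a-5p, 0.67), and 0 to 1 with 1 rat left out (rno-let-7a-5p, 0.56, without rat 1, and rno-let-7d-3p, -0.083, without rat 2). In the authors' table, where it was 0, the unadjusted p from limma was 0.026 for rno-let-7a-5p and 0.032 for rno-let-7b-5p. The changed floors, the fits limited to detected microRNAs, the changed blocks and the t-test reuse the same differences, so their counts add little. At an unadjusted p under 0.05 the count was 2 in the authors' table and without rat 1, 1 with flagged spots kept and without rat 2, and 0 under the other alternatives. The share of all microRNAs called under the alternatives was not counted, so these counts have no background beside them. Only for limma over the 126 was it counted, at 2.38% for 0.025 and 5.56% for under 0.05. Without the replicate block 0 members were past the cutoff, so the pairing changed no call. The median difference of 0.23 cannot change there, since the pairs are complete, but the standard errors did. That of rno-let-7a-5p rose from 0.219 to 0.505. It rose for each other detected member except rno-let-7i-5p, where it fell from 0.269 to 0.209. The median of the members, 0.23 with the main settings, was 0.59 without normalization between arrays, where the 126 detected microRNAs moved by 0.40 as a whole, and 0.06 to 0.33 with 1 rat left out. No member passed an adjusted p of 0.05 for a difference between rats under any of 16 alternatives that allow the test. rno-let-7a-5p, rno-let-7b-5p, rno-let-7c-5p and rno-let-7f-5p stayed above 0 under all 19 alternatives, at 0.22 to 0.72, 0.14 to 0.59, 0.16 to 0.65 and 0.06 to 0.77. The changed floors, the fits limited to detected microRNAs, the changed blocks and the t-test could not change these means. They are therefore no further evidence for the sign. rno-let-7d-3p, at -0.01, turned to 0.42 without normalization, 0.035 in the authors' table, 0.0054 with the total gene signal, 0.024 with flagged spots kept and 0.046 with the brightest probe, and with 1 rat left out it ran from -0.083 to 0.041. rno-let-7d-5p turned to -0.014 with the brightest probe and ran from -0.17 (without rat 3) to 0.17 with 1 rat left out, and rno-let-7i-5p from -0.12 (without rat 3) to 0.32. The causes were not tested. Signal over background limits rno-let-7e-5p and rno-miR-98-5p, for which no difference could be given. It also limits the rat 1 readings of rno-let-7d-5p and rno-let-7f-5p, whose dimmer probes had few or no spots well above background there.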
